A study of Mus musculus with 6 samples.

Results

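A set of 8 genes that carry lipid of lipoproteins into, through and out of cells was followed across 3 populations of mouse spleen. They were chosen by name, with earlier results of these data known. The set holds apolipoprotein E (Apoe), lipoprotein lipase (Lpl) and the fatty acid binding proteins Fabp4 and Fabp5. It also holds the sterol carriers Npc1 and Npc2, the cholesterol esterifying enzyme Soat1 and the lipid droplet protein Plin2. Every probe annotated to them on an Illumina mouse bead array was taken. Of the 8 genes 7 had a probe, with 15 of the 45281 probes, and Soat1 was not analysed here. The annotation named 19057 genes in all.

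The arrays held total RNA of macrophages and of conventional dendritic cells (cDC), the latter in a CD8+ and a CD8- group. All came from the spleen of C57/B6 mice, and the labels name no treatment or altered allele. Each population had replicates 1 and 2, so there were 6 arrays, and every mean ± SD below is over n = 2. The sources used here give neither the age and sex of the mice nor the way the cells were isolated. Nothing says that replicates came from separate animals, so every p-value rests on the spread between these 6 arrays alone, which may be technical.

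Apolipoprotein E coats lipoprotein particles and is a ligand of their receptors, and macrophages secrete it with cholesterol. Lipoprotein lipase cuts the triglyceride of such particles into fatty acids, which cytosolic fatty acid binding proteins then carry. Cholesterol esters taken up with particles or dying cells are cleaved in lysosomes, where NPC2 binds the freed cholesterol and hands it to NPC1 in the lysosomal membrane. Surplus cholesterol and fatty acids are stored as esters in droplets coated by perilipins such as PLIN2. Splenic macrophages of the red pulp engulf old red blood cells and so take in membrane lipid.

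Each array had 15802 to 15827 probes above background, set at 5.25 log2 from olfactory receptor and similar probes whose genes should be silent in spleen. Replicates correlated at 0.963 to 0.973. The labelled populations were checked against marker genes. All 9 measured macrophage markers were higher in macrophages than in cDC and 6 of 7 cDC markers were lower, among them Zbtb46, a cDC transcription factor. At the same limit, an adjusted p under 0.05, 15.4% of all genes were called in this contrast and 2.04% between the cDC groups. Between the cDC groups, 3 of 8 CD8+ markers (Xcr1, Clec9a and Cadm1) were higher in CD8+ cDC and 3 of 6 CD8- markers (Clec4a4, Cd4 and Esam) were higher in CD8- cDC. At an unadjusted limma p under 0.05, a limit at which no share of all genes was taken, these were 7 and 5. Cd8a was not called, at 5.67 and 4.96 log2 in CD8+ and 4.38 and 4.51 in CD8- cDC. Means in CD8+ and CD8- cDC were 11.27 and 11.30 for the CD8+ marker Batf3, and 9.51 and 9.04 for the CD8- marker Clec10a. Cadm1 averaged 11.82 in macrophages and 11.69 in CD8+ cDC. These are bulk samples, in which fewer cells of a type and less RNA per cell cannot be told apart.

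Of the 15 probes 9 lay above background on at least 1 array and 8 on at least 2. In the contrast of macrophages with the mean of both cDC groups, 6 member probes were called higher and 1 lower at an adjusted p under 0.05, where 11.2% of all probes were called, 5.54% higher and 5.65% lower. Among probes above background on at least 1 array 25.0% were called, against 7 of the 9 such member probes. Against CD8+ cDC alone 5 probes were higher and 1 lower, where 8.50% of all probes were called (4.43% higher, 4.07% lower, and 19.0% of those above background). Against CD8- cDC alone 4 were higher and 0 lower, where 9.32% of all probes were called (4.74% higher, 4.57% lower, and 20.8% of those above background). Between CD8+ and CD8- cDC 1 member probe was called, lower in CD8+ cDC, where 1.41% of all probes were called (0.855% higher, 0.552% lower, and 3.17% of those above background). Arrays of the sides compared did not overlap at 6, 7, 8 and 6 of the 9 member probes in these 4 contrasts, and at 45.5%, 61.8%, 63.7% and 47.9% of all probes above background. When values under background were set to that level before the fit, 1 of the 18 member calls stood, that of Fabp5 in macrophages against CD8+ cDC. Over all 15 probes, 7 of them of Npc1 and 6 at background on every array, the median log2 difference between macrophages and both cDC groups was 0.32. That median is the value of the Npc1 probe ILMN_1255914, itself at background and not called. Over all 19057 genes, with 1 probe each and so not in the same unit, the median was -0.002.

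**Figure D1:**
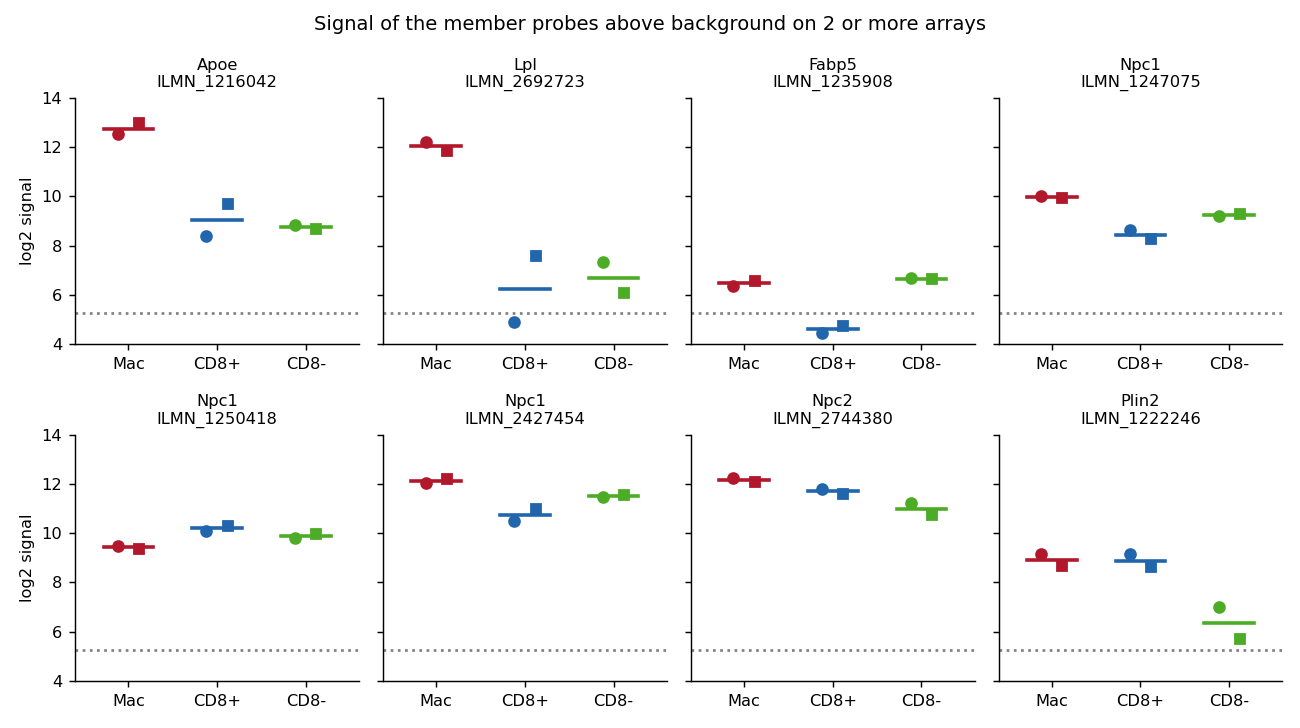
Log2 signal (vertical axis) of the 8 probes above the background level on at least 2 arrays, in macrophages (Mac, red), CD8+ cDC (blue) and CD8- cDC (green). Circles are replicate 1, squares replicate 2, bars the mean of both, and the dotted line is the background level of 5.25. Apoe and Lpl stand high in macrophages alone, Fabp5 is low in CD8+ cDC alone and Plin2 is low in CD8- cDC alone.

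Apoe and Plin2 showed different orders of the populations, and their start regions are printed for that contrast. Both are RefSeq windows on GRCm38.p6, from 250 bases before to 50 after the gene start, on the minus strand. Apoe lies at chr7:19699139-19699438, the outermost of its 3 windows, and Plin2 at chr4:86670010-86670309. Capitals mark every match, on either strand, to 4 motifs: AGGTCA and GGGTCA, which are short nuclear receptor elements, CACGTG, an E-box, and GAGGAA, an ETS core.
Apoe: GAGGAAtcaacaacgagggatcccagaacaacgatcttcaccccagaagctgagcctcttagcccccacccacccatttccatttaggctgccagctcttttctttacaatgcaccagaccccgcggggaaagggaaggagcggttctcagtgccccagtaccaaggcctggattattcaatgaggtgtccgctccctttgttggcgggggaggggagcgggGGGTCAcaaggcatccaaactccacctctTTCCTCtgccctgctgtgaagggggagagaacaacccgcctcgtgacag
Plin2: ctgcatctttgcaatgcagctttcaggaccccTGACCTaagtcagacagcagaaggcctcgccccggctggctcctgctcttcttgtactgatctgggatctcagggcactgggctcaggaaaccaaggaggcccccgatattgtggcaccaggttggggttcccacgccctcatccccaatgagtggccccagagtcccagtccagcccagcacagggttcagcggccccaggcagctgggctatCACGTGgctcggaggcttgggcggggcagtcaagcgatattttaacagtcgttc
Apoe held 1 GGGTCA and 2 GAGGAA (1 as its reverse complement), and Plin2 held 1 AGGTCA (as its reverse complement) and 1 CACGTG. Of all 32851 RefSeq windows of this length, 16.3% held AGGTCA, 13.7% GGGTCA, 7.15% CACGTG and 28.3% GAGGAA. The window of Npc2 held none of the 4, and 4 of the 8 genes had a window in the table. A match describes the letters only.

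Apoe, the secreted particle ligand, was higher in macrophages than in either cDC group. Its probe ILMN_1216042 read 12.52 and 12.99 log2 in macrophages, 8.39 and 9.68 in CD8+ cDC, and 8.85 and 8.68 in CD8- cDC. Both macrophage arrays lay above all 4 cDC arrays, while the arrays of the cDC groups overlapped. The mean was 12.75 ± 0.33 in macrophages, against 9.04 ± 0.91 for CD8+ and 8.76 ± 0.12 for CD8- cDC. Macrophages exceeded the mean of both cDC groups by 3.85 log2 (SE 0.39, limma adjusted p = 0.00714), which is 14.4-fold. The difference from CD8+ cDC was 3.72 (SE 0.45, adjusted p = 0.0137) and that from CD8- cDC 3.99 (SE 0.45, adjusted p = 0.0108). The cDC groups differed by 0.27 with a 95% interval from -0.89 to 1.44 (adjusted p = 0.962), and their order could not be told. Leaving out macrophage replicate 2 ended the call against both cDC groups (adjusted p = 0.0518), against CD8+ cDC (adjusted p = 0.0729) and against CD8- cDC (adjusted p = 0.0591). The call against CD8- cDC was also lost without CD8- replicate 1 (adjusted p = 0.0661) or replicate 2 (adjusted p = 0.0771). The difference from CD8+ cDC was 3.07 without CD8+ replicate 1 and 4.36 without CD8+ replicate 2.

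Lpl, the triglyceride lipase, showed the widest gap between macrophages and cDC of the 7 genes. Probe ILMN_2692723 read 12.22 and 11.86 in macrophages, 4.92 and 7.59 in CD8+ cDC, and 7.32 and 6.06 in CD8- cDC. CD8+ replicate 1 was at background, the other 3 cDC arrays were above it, and the cDC groups overlapped. Macrophages averaged 12.04 ± 0.25, CD8+ cDC 6.26 ± 1.89 and CD8- cDC 6.69 ± 0.89. An array at or under background on the dimmer side was counted at that level, and the fold is then a minimum. It is a minimum with regard to background, not to the spread between arrays. Each adjusted p beside such a fold, here and below, is that of the difference before this step. Lpl was at least 44.6-fold higher in macrophages than in both cDC groups (log2 difference 5.56, interval 3.41 to 7.72, adjusted p = 0.0194). It was at least 48.9-fold higher than in CD8+ cDC (adjusted p = 0.0309). Against CD8- cDC, measured on both sides, it was 40.7-fold higher (log2 difference 5.35, SE 0.96, adjusted p = 0.0360). CD8+ minus CD8- cDC was -0.43 with an interval from -2.92 to 2.05 (adjusted p = 0.980), so the arrays could not order these groups.

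These Lpl calls rested on few arrays, although the direction was the same without each array in turn. The call against both cDC groups was lost without macrophage replicate 1 (adjusted p = 0.0897), macrophage replicate 2 (adjusted p = 0.101), CD8- replicate 1 (adjusted p = 0.0523) or CD8- replicate 2 (adjusted p = 0.0648), and with an intensity-dependent prior (adjusted p = 0.0647). Against CD8+ cDC it stood only without CD8+ replicate 2 (adjusted p = 0.0273). Against CD8- cDC it was lost without either macrophage or either CD8- array, with adjusted p up to 0.169, and with the replicate number as a block (adjusted p = 0.0552). The size moved as well. The log2 difference from CD8+ cDC was 4.44 without CD8+ replicate 1 and 7.12 without CD8+ replicate 2, which left the array at background. That from CD8- cDC was 5.98 without CD8- replicate 1 and 4.72 without CD8- replicate 2, and that from both cDC groups was 4.89 and 6.23 without CD8+ replicates 1 and 2. The other Lpl probe, ILMN_2585447, stayed between 4.38 and 4.74 on all 6 arrays, at background, so it gave no check of the first.

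Macrophage markers were read beside these cDC values. On a linear scale, background included, Lpl in CD8+ cDC was 0.714% of the macrophage mean on replicate 1 and 4.57% on replicate 2, and in CD8- cDC 3.77% and 1.58%. The 9 macrophage markers, summed, stood at 1.99% and 6.36% in CD8+ cDC and at 9.07% and 5.83% in CD8- cDC. The markers in this sum were not alike in CD8- cDC. On CD8- replicates 1 and 2 Adgre1 read 11.89 and 11.87 log2, and Csf1r 10.53 and 10.46. On the same arrays Cd163 read 7.92 and 5.05, and Mertk 6.88 and 4.53. The level of the sum in CD8- cDC is therefore no measure of a macrophage share. Apoe stood at 4.80% and 11.8% in CD8+ cDC and at 6.57% and 5.87% in CD8- cDC. Within each cDC group the replicate with more macrophage marker signal also had more Apoe and more Lpl, though the Apoe readings of CD8- cDC were close. Across all cDC arrays the order was not shared. The marker sum was highest on CD8- replicate 1, and Apoe and Lpl were highest on CD8+ replicate 2. The part of macrophage RNA in the cDC readings of Apoe and Lpl was not tested.

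**Figure D2:**
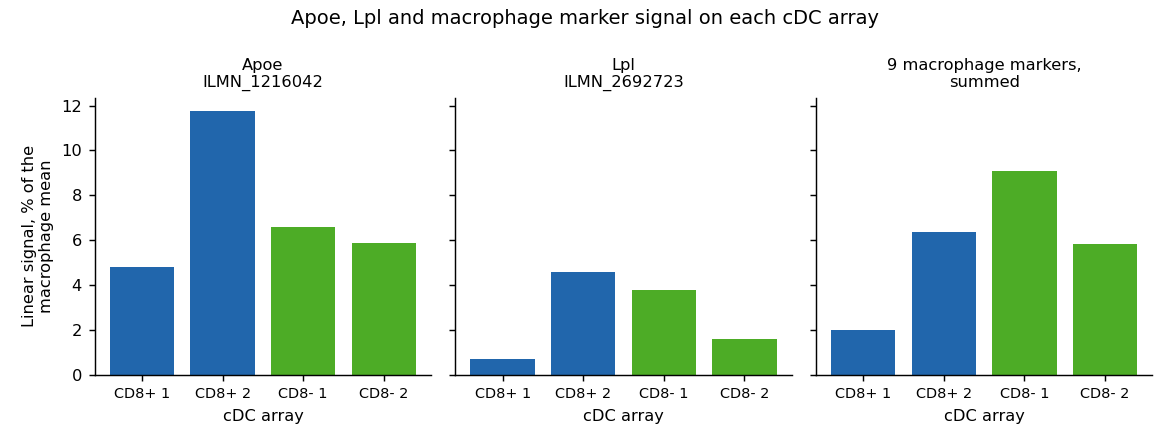
Linear signal on each of the 4 cDC arrays as a percentage of the macrophage mean (vertical axis from 0), for Apoe, Lpl and the sum of 9 macrophage markers. Bars are single arrays, CD8+ cDC in blue and CD8- cDC in green. In all 3 panels CD8+ replicate 2 exceeds CD8+ replicate 1, and CD8- replicate 1 exceeds CD8- replicate 2.

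Fabp5, a cytosolic carrier of fatty acids, was the member that separated CD8+ cDC from both other populations. Probe ILMN_1235908 read 6.37 and 6.56 in macrophages, 4.46 and 4.76 in CD8+ cDC, and 6.69 and 6.64 in CD8- cDC. Both CD8+ arrays were at background and the other 4 were above it. Macrophages averaged 6.47 ± 0.14, CD8+ cDC 4.61 ± 0.21 and CD8- cDC 6.67 ± 0.04. Fabp5 was at least 2.66-fold lower in CD8+ than in CD8- cDC (adjusted p = 0.0169), and at least 2.32-fold higher in macrophages than in CD8+ cDC (adjusted p = 0.00461). Macrophages and CD8- cDC differed by -0.20 with an interval from -0.56 to 0.16 (adjusted p = 0.574).

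The contrast of macrophages with both cDC groups was called for Fabp5 as well (at least 1.42-fold, adjusted p = 0.0176), although the CD8- arrays read above the macrophage arrays. That call averages cDC groups on either side of macrophages. It was lost without macrophage replicate 2 (adjusted p = 0.101), CD8- replicate 1 (adjusted p = 0.0621) or CD8- replicate 2 (adjusted p = 0.0664), and with an intensity-dependent prior (adjusted p = 0.0540). The call against CD8+ cDC stood without each of the 6 arrays in turn (adjusted p 0.0150 to 0.0289). The call between the cDC groups was lost without any 1 cDC array (adjusted p 0.0685 to 0.134). A further Fabp5 probe, ILMN_2685290, read 4.32 to 4.63 and stayed at background throughout.

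Fabp4, the fatty acid carrier of adipocytes and of some macrophages, had 1 probe (ILMN_2615947), which read 4.36 to 4.53 on the 6 arrays. It was not above background in any population, so no fold is given. Adipocyte markers were also low: of 8 measured genes 0 were called by limma in the 4 contrasts (at an unadjusted p under 0.05, 1 or 2 in each) and 6 were at background on all 6 arrays. The exceptions were Adipoq (5.28) and Slc2a4 (5.43), both just above background on CD8- replicate 2. Their summed linear signal was between 187 and 224 on every array.

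Npc1, the sterol carrier of the lysosomal membrane, had 7 probes that did not agree. Probe ILMN_1247075 read 10.01 and 9.94 in macrophages, 8.65 and 8.26 in CD8+ cDC, and 9.20 and 9.29 in CD8- cDC. Probe ILMN_2427454 read 12.03 and 12.21, 10.51 and 11.00, and 11.48 and 11.55 in the same groups. On both, macrophages were highest, CD8- cDC next and CD8+ cDC lowest, with no overlap of arrays. Probe ILMN_1250418 ran the other way, at 9.48 and 9.36 in macrophages, 10.09 and 10.30 in CD8+ cDC, and 9.79 and 9.96 in CD8- cDC, again with no overlap.

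The first of these probes was 1.52 log2 higher in macrophages than in CD8+ cDC (SE 0.15, 2.87-fold, adjusted p = 0.00844), and ILMN_2427454 was 1.37 higher (SE 0.18, 2.58-fold, adjusted p = 0.0175). In the same contrast ILMN_1250418 was lower by 0.77 (log2 difference -0.77, SE 0.12, adjusted p = 0.0262). Against the mean of both cDC groups the 3 differences were 1.13 (adjusted p = 0.00945), 0.98 (adjusted p = 0.0236) and -0.61 (adjusted p = 0.0277). None of the 3 was called against CD8- cDC, where the differences were 0.73 (adjusted p = 0.0505), 0.60 (adjusted p = 0.143) and -0.45 (adjusted p = 0.103). None was called between the cDC groups, at -0.79 (adjusted p = 0.107), -0.76 (adjusted p = 0.183) and 0.32 (adjusted p = 0.419). The direction of Npc1 therefore depends on the probe read, and the files used here do not say which part of the transcript each probe covers.

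The rise on ILMN_1247075 against CD8+ cDC was called without each of the 6 arrays in turn (adjusted p 0.0231 to 0.0444). The fall on ILMN_1250418 was lost in all 6 of these fits, against CD8+ cDC (adjusted p 0.0561 to 0.118) and against both cDC groups (adjusted p 0.0530 to 0.148). On ILMN_2427454 the calls stood only without CD8+ replicate 1 or without CD8+ replicate 2, and reached adjusted p = 0.0886 and 0.134 otherwise. Against both cDC groups ILMN_1247075 lost its call without macrophage replicate 2 (adjusted p = 0.0586). Of the remaining 4 probes, ILMN_1252918 read 4.74 to 5.36 and rose above background on 1 array. The others read 4.32 to 4.46 (ILMN_1232258), 4.45 to 4.83 (ILMN_1255914) and 4.36 to 4.44 (ILMN_2762823), all at background and none called.

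**Figure D3:**
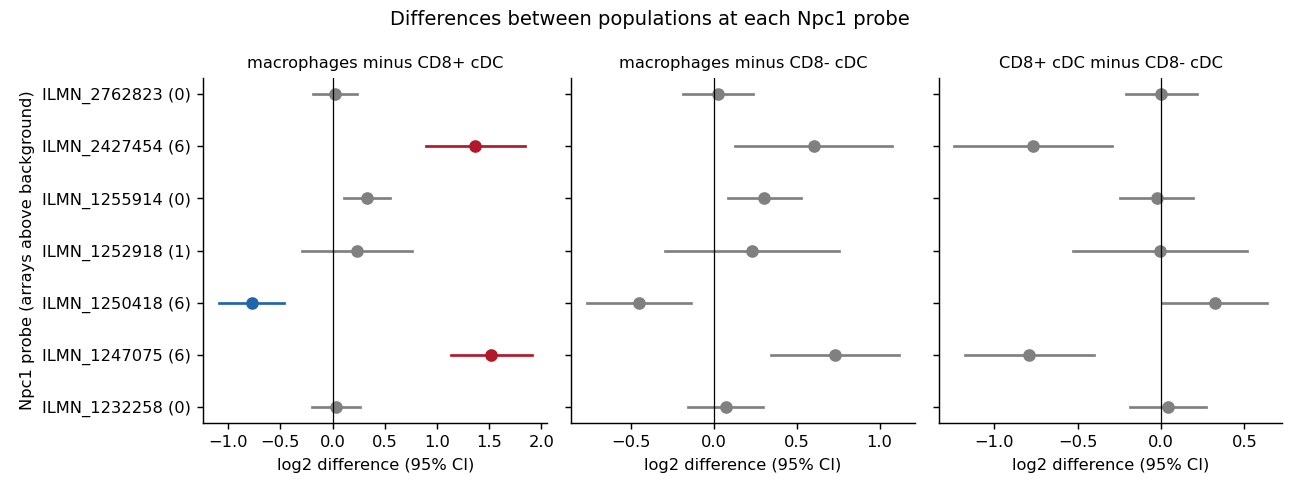
Log2 difference between populations (horizontal axis) at each of the 7 Npc1 probes, with its 95% confidence interval, in 3 pairwise contrasts. The number in brackets is how many of the 6 arrays were above background, and red, blue and grey mark higher, lower and not called. Against CD8+ cDC, 2 probes were higher in macrophages and 1 was lower.

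Npc2, the soluble partner that binds freed cholesterol in the lysosome, was bright in all 3 populations. Its probe ILMN_2744380 read 12.23 and 12.07 in macrophages, 11.79 and 11.60 in CD8+ cDC, and 11.22 and 10.75 in CD8- cDC. The groups did not overlap and fell in that order, with means of 12.15 ± 0.11, 11.70 ± 0.13 and 10.98 ± 0.33. Macrophages exceeded CD8- cDC by 1.17 (SE 0.19, 2.25-fold, adjusted p = 0.0256) and the mean of both cDC groups by 0.81 (SE 0.16, adjusted p = 0.0414). The neighbours in the order were not called, at 0.45 (interval -0.03 to 0.93, adjusted p = 0.278) between macrophages and CD8+ cDC and 0.72 (interval 0.24 to 1.20, adjusted p = 0.216) between the cDC groups. Both calls stood without CD8- replicate 1 and were lost without any other array, with adjusted p up to 0.0958 and 0.168.

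Plin2, which coats lipid droplets, read at overlapping levels in macrophages and CD8+ cDC and lower in CD8- cDC. Probe ILMN_1222246 read 9.15 and 8.66 in macrophages, 9.14 and 8.63 in CD8+ cDC, and 7.0 and 5.70 in CD8- cDC. Both CD8- arrays lay under the other 4 and above background. Macrophages averaged 8.90 ± 0.35, CD8+ cDC 8.88 ± 0.36 and CD8- cDC 6.35 ± 0.92. Macrophages exceeded CD8- cDC by 2.56 (SE 0.48, 5.88-fold, adjusted p = 0.0412). The difference of CD8+ from CD8- cDC, 2.54, was of nearly the same size but was not called (SE 0.48, interval 1.29 to 3.78, adjusted p = 0.109). Macrophages and CD8+ cDC differed by 0.02 with an interval from -1.23 to 1.27 (adjusted p = 0.994), which leaves room for a change of over 2-fold either way.

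The Plin2 calls depended on the fit. Macrophages against CD8- cDC was called without CD8- replicate 1 (log2 difference 3.21, adjusted p = 0.0385) and lost without any other array (adjusted p up to 0.142), with a difference of 1.90 without CD8- replicate 2. Between the cDC groups the difference was called when dim probes were left out (adjusted p = 0.0174) with an intensity-dependent prior (adjusted p = 0.00161) and with the replicate number as a block (adjusted p = 0.0410). The difference of macrophages from both cDC groups, 1.29, was not called (adjusted p = 0.151) but was in those fits (adjusted p = 0.0355, 0.0187 and 0.0345).

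The genes with the most similar profile were named for each member probe whose group means spanned over 1 log2. The measure was the root mean square difference between profiles centred on their own mean over the 6 arrays, searched among 9658 genes. For Apoe the closest was Tnfsfm13 (0.0637 log2), then Unc13b (0.183) and Siglec1 (0.208), the sialic acid lectin of macrophages. Unc13b was at background on 3 of the 4 cDC arrays and Siglec1 on all 4, so their distances rest partly on background values. For Lpl they were the integrin Itga9 (0.207), the IgG receptor Fcgr3 (0.256) and Epb41l3 (0.259). For Fabp5 the closest was the antiviral membrane protein Ifitm3 (0.156), followed by Pira1 (0.203) and Arap2 (0.254). The upward Npc1 probes had as neighbours the kinase Syk (0.107), Anapc16 (0.123) and the phospholipid transfer protein Pltp (0.125) for ILMN_1247075, and Ly9 (0.0829), Zfp579 (0.0973) and Tmem51 (0.106) for ILMN_2427454. Npc2 lay closest to the peroxiredoxin Prdx4 (0.105), Xpo7 (0.119) and Kifbp (0.119). Plin2 lay closest to the fatty acid desaturase Scd1 (0.289), Gng12 (0.291) and Rap1gap (0.296). Fabp5 itself was at background on both CD8+ arrays, and Lpl, its neighbour Itga9 and the Npc1 neighbour Pltp on 1 cDC array each. Those distances, too, rest partly on background values. The measure is a description over 6 arrays.

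The wider pathway was counted over 8 lists of other genes, with 1 probe a gene and 137 genes measured. These lists, like the members, were chosen with earlier results of these data known, so their counts are a description. In macrophages against both cDC groups 36 were higher and 6 lower, or 30.7%, where 15.4% of all genes were called (8.22% higher, 7.21% lower). Among probes above background on at least 1 array 25.0% were called, and no such share was taken over genes. The median difference was 0.18, against -0.002 over all genes. Against CD8+ cDC 30 were higher and 4 lower, where 11.8% of all genes were called (6.55% higher, 5.25% lower). Against CD8- cDC 29 were higher and 4 lower, where 13.1% of all genes were called (7.14% higher, 5.93% lower). Between CD8+ and CD8- cDC 2 were higher and 0 lower, where 2.04% of all genes were called (1.29% higher, 0.756% lower). These were Scarb1, a receptor for high density lipoprotein, at least 1.70-fold higher in CD8+ cDC (adjusted p = 0.0249), and Scarb2, a lysosomal membrane receptor. The log2 difference of Scarb2 was 1.43 (adjusted p = 0.0255).

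Of the 42 genes called against both cDC groups, 24 were also called against each cDC group, and 19 were called without each array in turn. The counts fell when arrays were left out. The 42 became 20 without macrophage replicate 2, 26 without CD8- replicate 1 and 27 without CD8- replicate 2. The 34 called against CD8+ cDC became 16 or 17 without a CD8+ array and 17 without macrophage replicate 2. The 33 called against CD8- cDC became 15 or 13 without a CD8- array and 18 without macrophage replicate 2. Of the 2 called between the cDC groups 0 were called without any 1 cDC array and 1 without either macrophage array.

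The lists are given next for macrophages against both cDC groups, where 15.4% of all genes and 25.0% of probes above background were called. Both shares are at an adjusted p under 0.05. None was taken at an unadjusted limma p, so counts at that limit have no share beside them. Differences given without the word fold are in log2. Genes above background on at least 1 array were 10 of 15, 4 of 11, 12 of 16 and 14 of 15 in the first 4 lists. In the last 4 they were 17 of 19, 13 of 23, 11 of 18 and 15 of 20. Of 15 lipoprotein receptors, lipases and their regulators 5 (33.3%) were higher and 0 lower (median 0.09), or 6 and 1 at an unadjusted p under 0.05. Angptl4, an inhibitor of lipoprotein lipase, exceeded its cDC level at least 39.1-fold (adjusted p = 0.00279). The lipoprotein receptor Lrp1, which binds APOE, was 4.17 higher (adjusted p = 0.00101). Scarb1 rose at least 2.61-fold (adjusted p = 0.00216) and the sorting receptor Sort1 was 1.5 log2 higher (adjusted p = 0.0132). Of 11 genes in the apolipoprotein list 2 were higher and 0 lower (2 and 1 at an unadjusted p under 0.05). That share, 18.2%, is near that of all genes, while 7 were at background on all arrays. The list includes Apobr, a receptor for apolipoprotein B and not an apolipoprotein. Apobr was the 1 lower at an unadjusted p (log2 difference -0.56, adjusted p = 0.0777). Apoc1, a neighbour of Apoe in the genome, rose at least 57.6-fold (adjusted p = 0.00497), and Apoc2, the activator of lipoprotein lipase, at least 2.79-fold (adjusted p = 0.00227).

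Of 16 cholesterol efflux and LXR pathway genes 6 were higher and 1 lower (43.8%, median 0.55), or 8 and 3 at an unadjusted p under 0.05. Nr1h3, the oxysterol receptor LXR alpha, read 13.22 and 13.53 in macrophages, 5.63 and 9.06 in CD8+ cDC, and 8.64 and 7.31 in CD8- cDC. It was 5.72 higher in macrophages (adjusted p = 0.0319), at 4.86 without CD8+ replicate 1 and 6.57 without CD8+ replicate 2, and was not called against CD8- cDC alone (adjusted p = 0.0620). The sterol exporter Abcg1 was 2.69 higher (adjusted p = 0.00835), Abca9 at least 4.36-fold (adjusted p = 0.0167) and the LXR partner Rxra at least 3.58-fold (adjusted p = 0.00551). Abca9 was at 4.54 ± 0.04 in CD8+ and 6.61 ± 0.87 in CD8- cDC, and against CD8- cDC alone it was not called (1.45, adjusted p = 0.117). Abca7 was the lower one (log2 difference -1.21, adjusted p = 0.0339), named here after its value was seen. It was not called against CD8+ cDC alone.

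Of 15 genes of lysosomal lipid release and export 10 were higher in macrophages and 1 lower (73.3%, median 1.21), or 11 and 1 at an unadjusted p under 0.05. The lysosomal phospholipase Pla2g15 was 4.69 higher (adjusted p = 0.00667). Lipa, the acid lipase that frees cholesterol for NPC2 and NPC1, was 2.05 higher (adjusted p = 0.00121). The membrane protein Lamp1 was 2.02 higher (adjusted p = 0.0133) and Tmem97, a regulator of NPC1 protein, 1.67 higher (adjusted p = 0.0360). Tmem97 was not called against CD8- cDC alone. The GM2 activator Gm2a was lower (log2 difference -0.71, adjusted p = 0.0211), likewise named after its value was seen. It was not called against CD8- cDC alone.

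Of 19 cholesterol synthesis genes 0 were higher and 3 lower in macrophages by limma, with a median of 0.08. That share, 15.8%, is near the 15.4% of all genes and under the 25.0% of all probes above background. At an unadjusted p under 0.05, where no share of all genes was taken, these counts were 2 and 7. The lower ones were Srebf2, the transcription factor of the pathway (-1.11, adjusted p = 0.0264), the squalene epoxidase Sqle (-1.04, adjusted p = 0.0167) and the sterol dehydrogenase Nsdhl (-1.01, adjusted p = 0.00764). Srebf2 was not called against CD8+ cDC alone, nor Sqle against CD8- cDC alone.

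Of 23 droplet and ester genes 5 (21.7%) were higher and 0 lower (median 0.10), or 9 and 4 at an unadjusted p under 0.05. They included Hilpda, a droplet protein that inhibits triglyceride lipase (2.53, adjusted p = 0.0111), the cholesterol ester hydrolase Nceh1 (2.50, adjusted p = 0.00389), Dgat2, which makes triglyceride (1.32, adjusted p = 0.0335), and the lipase activator Abhd5 (1.19, adjusted p = 0.0252). Dgat2 and Abhd5 were not called against CD8- cDC alone. Of 18 genes of fatty acid binding, uptake and activation 3 were higher and 0 lower (median 0.21), or 5 and 0 at an unadjusted p under 0.05, and the share of 16.7% is near that of all genes. These were Acsl3, which activates fatty acids (at least 6.51-fold, adjusted p = 0.00599), the transporter Slc27a4 (at least 1.80-fold, adjusted p = 0.0214) and Fabp6 (at least 1.40-fold, adjusted p = 0.0197). Slc27a4 and Fabp6 were not called against CD8+ cDC alone, and Fabp6 read 5.75 and 5.85 in macrophages, near background. Of 20 PPAR and oxidation genes 5 were higher and 1 lower (30%, median 0.37), or 9 and 1 at an unadjusted p under 0.05. The nuclear receptor Pparg rose at least 35.5-fold (adjusted p = 0.00716) and its coactivator Ppargc1b at least 7.44-fold (adjusted p = 0.00276). The acyl-CoA dehydrogenases Acads (1.82, adjusted p = 0.00510) and Acadm (1.24, adjusted p = 0.00386) were higher too, and the carnitine carrier Slc25a20 was lower (log2 difference -0.78, adjusted p = 0.0434), named after its value was seen. Slc25a20 was not called against CD8- cDC alone.

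**Figure D4:**
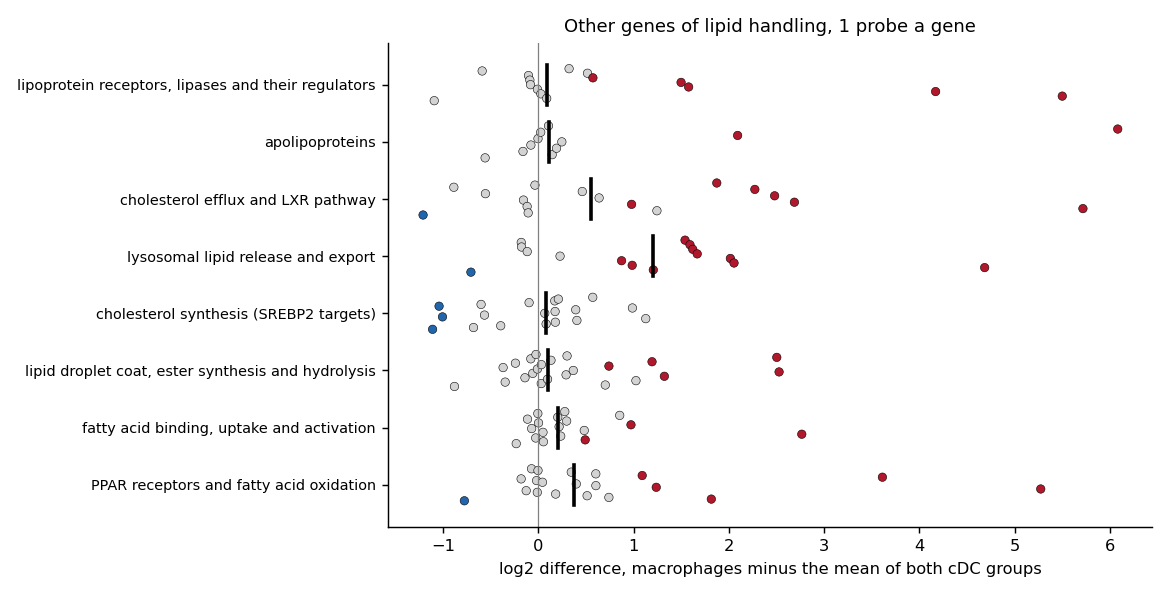
Log2 difference between macrophages and the mean of both cDC groups (horizontal axis) for 137 other genes in 8 lists of lipid handling, 1 point a gene. Red points were called higher, blue lower and grey were not called, and the black bar is the list's median. Lysosomal lipid genes have the highest median, 1.21, and cholesterol synthesis genes have no point called higher.

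Markers of other spleen cells were read in the same contrast, where 15.4% of all genes were called (8.22% higher, 7.21% lower). Of 12 endothelial markers 2 were higher in macrophages, Pecam1 (2.06) and the scavenger receptor Stab2 (5.52), which is no marker of endothelium alone. Kdr, Tek, Tie1, Emcn and Gpihbp1, the endothelial anchor of lipoprotein lipase, were at background on all 6 arrays. Cdh5 was above background on 4 arrays (up to 6.34) and Ramp2 on 5 (up to 6.15). Cldn5 (5.48) and Egfl7 (6.12) were above it on CD8+ replicate 2 only. The sum of the 12 was 5588 to 7284 in macrophages, 1281 to 1871 in CD8+ cDC and 3480 to 4209 in CD8- cDC. It holds Esam, which also stood among the CD8- cDC markers above. Esam read 11.42 and 11.73 in CD8- cDC, 9.13 and 9.83 in CD8+ cDC, and 10.35 and 10.63 in macrophages. The order of the cDC groups in this sum is therefore no measure of endothelial cells. Of 8 erythroid markers 2 (Klf1 and Epor) were higher, and 6 at an unadjusted p under 0.05, with a list median of 1.70. Alas2 differed by 3.38 (adjusted p = 0.0566) and Slc4a1 by 3.46 (adjusted p = 0.155). Their sum, which holds the bright globin Hba-a1, had values of 20525 to 25784 in macrophages, 9651 to 15238 in CD8+ cDC and 8260 to 16005 in CD8- cDC. Of 9 neutrophil markers 1 (Csf3r) was higher, with sums of 1264 to 3098 in macrophages and 362 to 608 in the cDC groups. Of 6 B cell markers 1 was higher, with sums of 1661 to 2335 in macrophages, 1485 to 3682 in CD8+ cDC and 1159 to 1900 in CD8- cDC. Of 6 T cell markers 0 were called by limma, also at an unadjusted p under 0.05. Their sums were 920 and 174 on macrophage replicates 1 and 2, 486 and 225 in CD8+ cDC and 621 and 275 in CD8- cDC. They were higher on replicate 1 in every group, as were the B cell, neutrophil and erythroid sums. The endothelial sum was higher on replicate 2 in every group. The part of these cells in the results above was not tested.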

How the data were processed

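RNA of splenic macrophages, CD8+ cDC and CD8- cDC, 2 arrays each, was prepared with column kits, biotin-labelled and hybridised by the authors, per the labels' protocols. BeadStudio and limma stand in the submitters' processing notes, with no version. The deposited value table was used, whose values were taken to be log2 from their range of 4.25 to 14.53, since the labels do not state the base. Its columns had nearly 1 distribution (largest gap between sorted columns 0.0349) and were not normalized again. A further 12 columns of scanner signals match no sample label and were not used. Probes were named by the platform annotation: 34885 had 1 gene symbol, 18 several and 10378 none, and the IDs of 34807 matched the RefSeq gene table of GRCm38.p6, which changed 0 symbols.

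The tests used limma 3.58.1 (R 4.3.3): lmFit on the 6 arrays with a coefficient for each group, then eBayes, with 3 residual and 1.86 prior degrees of freedom. P-values were adjusted by Benjamini and Hochberg over 45281 probes and called under 0.05. Every adjusted p in the text is limma's, and intervals cover 95%. The fit was tested on simulated data.

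The background level (5.25 log2) was the 99th percentile of 1592 probes of keratin-associated proteins and of olfactory, taste and vomeronasal receptors. It filtered no test, and 65.1% of all values lay at or under it. For gene lists the probe with the highest mean stood for a gene. All probes of the members were described, and up to 4 called genes with the largest difference were named per list, with exceptions said to be so. The members and lists were chosen with earlier results of these data known. The number of arrays limits the precision, and no counts or detection p entered. Alternatives were a replicate block, each array left out, dim probes left out, values floored at background, further quantile normalization, 75th percentile centring, an eBayes prior with trend and robust settings, a 95th percentile background level (4.91 log2) and averaged probes.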

Additional observations from a re-analysis of the deposited data

How the results depend on the processing

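Of the 18 member calls in the 4 contrasts, all 18 stood with quantile normalization run once more, with 75th percentile centring and with dim probes left out at either level. The block on the replicate number kept 17 and the intensity-dependent robust prior 14. Leaving out 1 array kept between 3 (without macrophage replicate 2) and 12, so the calls are limited by 2 arrays a group.

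Leaving out each array in turn gave 2329 to 4081 called probes in macrophages against both cDC groups (5068 with all arrays), 0 to 308 between the cDC groups (637), 1244 to 3476 against CD8+ cDC (3850) and 1189 to 3700 against CD8- cDC (4218). Member probes called were 0 to 5 (7), 0 to 1 (1), 2 to 5 (6) and 0 to 3 (4). With values floored at background the counts of all probes were 829, 68, 545 and 589, and those of member probes 0, 0, 1 and 0; the cause was not tested. Between the cDC groups 1196 probes were called with dim probes left out, 1212 at the 95th percentile level and 1392 with the intensity-dependent prior, and member probes numbered 2, 2 and 3.

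The labels number replicates 1 and 2 in each group without saying what a number shares. Replicate differences correlated at 0.421, 0.281 and 0.287 between groups over 15952 probes. The replicate block gave 5636, 633, 4363 and 4682 called probes and 8, 2, 6 and 3 member probes. It ended the Lpl call against CD8- cDC (adjusted p = 0.0552) and called Plin2 between the cDC groups (adjusted p = 0.0410) and against both (adjusted p = 0.0345).

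Directions reversed only at uncalled differences, in fits without 1 array. CD8+ minus CD8- cDC ran from -0.37 to 0.92 for Apoe, from -1.77 to 0.91 for Lpl and from -0.22 to 0.21 for Npc1 ILMN_1252918. Macrophages minus CD8+ cDC ran from -0.24 to 0.27 for Plin2. With the 95th percentile level the minimum folds of Fabp5 were 1.60, 3.38 and 2.95. Scanner signals with neqc were not run, since their columns could not be mapped to samples.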
